A study of Mus musculus with 8 samples.

Results

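The contractile genes of smooth and cardiac muscle were followed in cultures that were being turned from embryonic stem cells (ESCs) into neural precursor cells (NPCs). The 10 genes were taken by symbol from the count tables, 10 of 26263 genes in all, as a check for RNA of muscle-like cells in a neural culture. The smooth muscle genes were *Acta2*, *Tagln*, *Cnn1*, *Myl9* and *Myh11*, and the cardiac genes were *Actc1*, *Tnnt2*, *Myl7*, *Myl4* and *Myh6*. RNA-seq libraries came from hybrid male ESC lines of C57BL/6 (B) and JF1 (J) mice and from day 12 of *in vitro* corticogenesis of the same lines. The B/J line BJE2 had a B mother and the J/B line JBE6 a J mother, and each cross was a single line. ESCs were grown with LIF, BMP4 and a GSK3-β inhibitor, and the corticogenesis cultures on Matrigel in a default medium with B27 and dorsomorphin homolog 1, an inhibitor of BMP receptors. There were 2 libraries in each of the 4 groups (ESC B/J, ESC J/B, NPC B/J and NPC J/B). No source used here says that these replicates were separate cultures, so that p-values measure the spread between these libraries, which may be technical.

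Muscle contracts when myosin heads pull on actin filaments. In smooth muscle the pull is switched on by phosphorylation of the regulatory myosin light chain, and calponin and transgelin bind the actin filaments. In heart and skeletal muscle the switch sits on the actin filament, in the troponin complex, and the filaments are ordered into sarcomeres. *Acta2* and *Tagln* are also read in fibroblasts that have taken on contractile features, in pericytes and in other cells of mesodermal origin, so that neither gene alone defines smooth muscle. *Myh11*, the smooth muscle myosin heavy chain, is the gene most closely tied to mature smooth muscle, while *Tnnt2* and *Myh6* are classical genes of heart muscle cells. Many of these genes are known targets of serum response factor (SRF), which binds a sequence called the CArG box, together with its partner myocardin.

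The start regions are shown for the 5 genes in which a CArG box, or a form of it with 1 G or C among its 6 middle A/T bases, was found. Windows ran from 250 bases before to 50 bases after the gene start (RefSeq, GRCm38.p6) and were matched for 8 of the 10 genes, without *Tagln* and *Myh11*. Capitals mark the matches, and each line is read 5′ to 3′ on the strand of the gene.
Acta2 (chr19:34255324-34255623, minus strand): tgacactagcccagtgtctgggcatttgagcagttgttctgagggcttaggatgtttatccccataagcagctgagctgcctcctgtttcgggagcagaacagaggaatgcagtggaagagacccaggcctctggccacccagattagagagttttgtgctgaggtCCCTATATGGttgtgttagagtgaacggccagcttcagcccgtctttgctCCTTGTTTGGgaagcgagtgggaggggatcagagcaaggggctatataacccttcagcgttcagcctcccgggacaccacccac
Myl9 (chr2:156775214-156775513, plus strand): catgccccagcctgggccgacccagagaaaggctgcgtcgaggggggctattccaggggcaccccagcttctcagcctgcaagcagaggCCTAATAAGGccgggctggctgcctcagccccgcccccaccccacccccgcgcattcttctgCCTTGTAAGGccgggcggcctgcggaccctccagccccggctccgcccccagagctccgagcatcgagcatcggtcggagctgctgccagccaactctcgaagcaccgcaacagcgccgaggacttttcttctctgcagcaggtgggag
Actc1 (chr2:114052826-114053125, minus strand): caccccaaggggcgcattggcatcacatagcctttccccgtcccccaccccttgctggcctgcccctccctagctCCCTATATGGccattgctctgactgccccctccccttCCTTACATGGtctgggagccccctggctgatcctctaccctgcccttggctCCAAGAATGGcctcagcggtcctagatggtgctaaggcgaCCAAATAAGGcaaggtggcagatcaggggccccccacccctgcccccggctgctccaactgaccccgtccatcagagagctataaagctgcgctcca
Myl7 (chr11:5898733-5899032, minus strand): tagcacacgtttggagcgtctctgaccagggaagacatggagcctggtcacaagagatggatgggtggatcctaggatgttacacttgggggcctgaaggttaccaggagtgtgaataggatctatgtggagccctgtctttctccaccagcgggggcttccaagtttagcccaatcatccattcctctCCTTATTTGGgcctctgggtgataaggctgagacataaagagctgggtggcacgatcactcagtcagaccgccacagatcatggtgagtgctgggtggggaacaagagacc
Myh6 (chr14:54966558-54966857, minus strand): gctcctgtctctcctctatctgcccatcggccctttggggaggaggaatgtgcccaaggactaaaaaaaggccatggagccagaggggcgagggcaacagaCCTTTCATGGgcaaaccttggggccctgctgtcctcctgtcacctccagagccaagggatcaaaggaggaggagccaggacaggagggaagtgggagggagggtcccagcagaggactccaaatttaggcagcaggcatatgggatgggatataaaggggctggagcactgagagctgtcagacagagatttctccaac

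These 5 windows held 10 matches, 3 of them to the full CArG box and 7 to the form with 1 G or C. The full box lay 161 bases before the start of *Myl9*, 47 before that of *Actc1* and 61 before that of *Myl7*, counted from its first base, and 1.63% of all 32851 RefSeq windows of this length held one on either strand. The form with 1 G or C was found in *Acta2*, at 84 and 34 bases before the start, in *Myl9*, in *Actc1* at 3 places and in *Myh6*, against 8.50% of all windows. *Cnn1*, *Tnnt2* and *Myl4* held neither. No window held a MEF2 box, against 1.86% of all windows. Of shorter motifs searched on both strands, CATTCC, the core bound by TEAD factors, was in *Acta2*, *Tnnt2*, *Myl7* and *Myh6* (14.7% of all windows), TATAAA in *Actc1* and *Myh6* (13.6%), AGATAA in *Tnnt2* (11.2%) and CANNTG, the E-box, in 7 of the 8 genes (72.3%). Both TATAAA matches lay after the RefSeq start, at bases 34 to 39 in *Actc1* and 2 to 7 in *Myh6*, and all distances are from that start. A match is a string of letters and no measurement of binding.

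The libraries held 22537138 to 32706015 reads on genes. Levels are given in CPM, the counts of a gene scaled to the library's reads on genes, and 1 count was worth 0.0306 to 0.0444 CPM. The stem cell gene *Pou5f1* fell from 1640 ± 305 to 31.1 ± 18.6 CPM (mean ± SD, n = 4 libraries each). *Nes*, an intermediate filament gene of neural precursors, rose from 28.9 ± 12.8 to 180 ± 91.6 CPM, and *Pax6*, a regulator of cortical precursors, was at 6.96 ± 5.81 and 35.8 ± 20.9 CPM (log2 fold change 1.77, SE 0.733) and did not pass, with an adjusted p of 0.0606. In edgeR's quasi-likelihood test, with p-values adjusted over all 16399 genes tested and a threshold of 0.05, 69.4% of all genes passed between the stages, 37.5% higher and 31.9% lower in NPCs. With library totals in place of TMM factors the calls split into 8016 higher and 3422 lower, against 6145 and 5233 with TMM, and with scaling to *Gapdh*, *Gusb* and *Tbp* into 8469 and 2824. Over all genes the median change in log2 was 0.17 with TMM, 0.65 with library totals and 0.80 with the 3 genes. CPM values below are on library totals and log2 fold changes on TMM factors, and no direction of the 9 tested contractile genes over both crosses turned under any of these scalings.

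Over both crosses, 4 contractile genes rose from ESCs to NPCs (*Acta2*, *Myl9*, *Actc1* and *Tnnt2*), 3 fell (*Cnn1*, *Myl7* and *Myh6*), 2 did not pass the test (*Tagln* and *Myl4*) and *Myh11* had too few reads to be tested. Their 7 calls among 9 tested genes stand beside the 69.4% of all genes that passed. The median log2 fold change of the 9 was 2.04, against 0.17 for all genes. All 4 NPC libraries lay above all 4 ESC libraries for 6 genes, *Acta2*, *Tagln*, *Myl9*, *Actc1*, *Tnnt2* and *Myl4*, an order that 46.7% of all tested genes had. They lay below them for *Myl7* and *Myh6*, as for 20.5% of all genes. These orders are on library totals. With TMM factors, compared after seeing the data, *Tagln* and *Myl4* overlapped between the stages, which left 4 genes above (35.3% of all genes) and the same 2 below (31.2%). In bulk RNA, more cells of a type and more RNA per cell cannot be told apart.

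**Figure D1:**
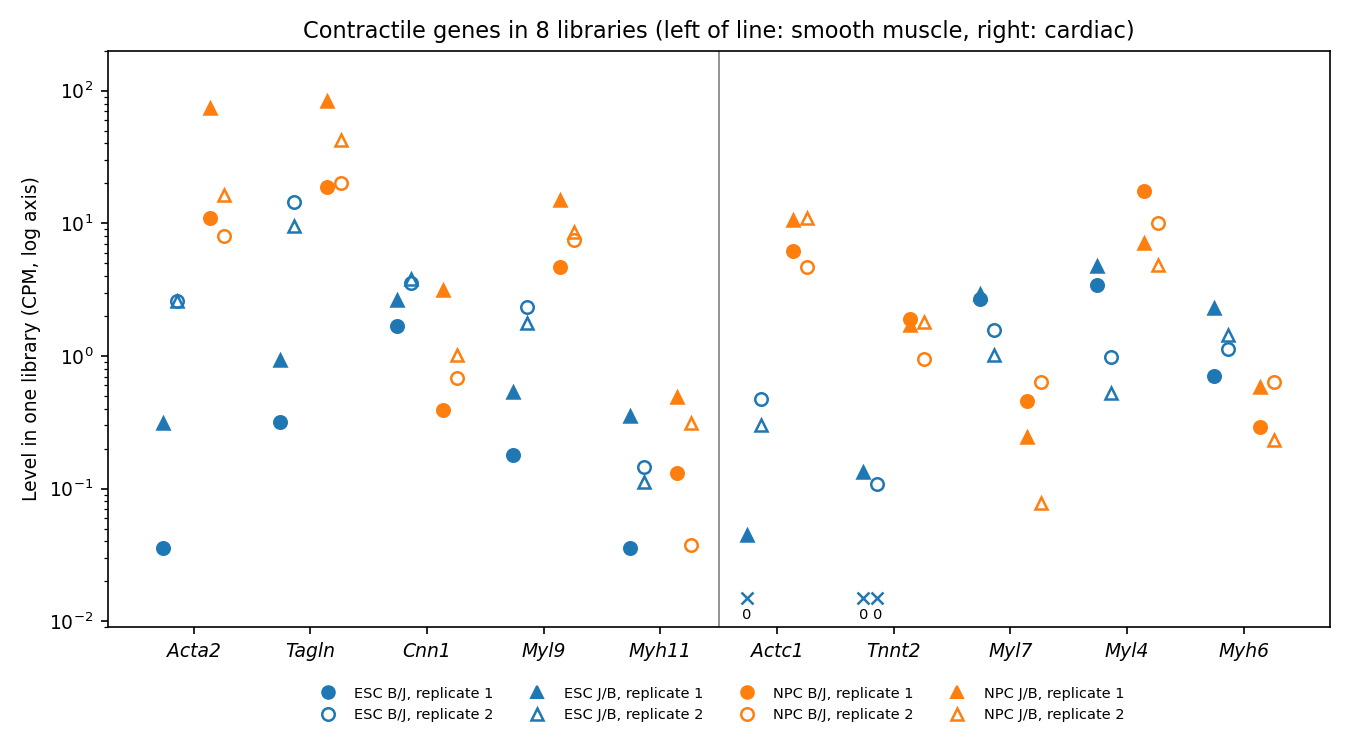
Level of each of the 10 contractile genes in each of the 8 libraries, in CPM on a log axis, with ESCs in blue and NPCs in orange, circles for B/J and triangles for J/B, filled for replicate 1 and open for replicate 2. A cross over the digit 0 marks a library with no count, and *Acta2* in NPC J/B replicate 1 stands at 74.1 CPM, above 16.4 CPM in the next library.

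The smooth muscle α-actin gene *Acta2* (chr19:34217737-34232990 in GRCm39, minus strand, 9 exons in its canonical transcript) was read in the B/J ESCs at 0.0356 and 2.59 CPM and in the J/B ESCs at 0.311 and 2.60 CPM. In NPCs it was at 11 and 8.05 CPM in B/J and at 74.1 and 16.4 CPM in J/B. Every NPC library was above every ESC library, and the ESC libraries themselves fell into a pair near 2.6 CPM, both of replicate 2, and a pair below 0.4 CPM, both of replicate 1. The rise was 3.45 on the log2 scale (SE 1, adjusted p = 0.0156). It was 7.49 among the libraries of number 1 alone (adjusted p = 0.0105) and 1.77 among those of number 2 alone (adjusted p = 0.00584), both added after seeing the data. Without ESC B/J replicate 2 it was 5.96 (adjusted p = 0.00522), without NPC J/B replicate 1 it was 2.71 with an adjusted p of 0.0619, and with no low-count filter the adjusted p was 0.0672. Its exons share 301 bases with those of *Stambpl1* on the other strand, with means of 2.96 ± 1.61 CPM (ESCs) and 2.13 ± 0.348 CPM (NPCs) that did not pass the test (log2 fold change -0.87, adjusted p = 0.0683).

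*Tagln* (chr9:45840909-45847404, minus strand), the actin-binding protein transgelin, was in ESCs at 0.320 and 14.6 CPM in B/J and at 0.932 and 9.54 CPM in J/B. The NPC values were 18.9 and 20.1 CPM in B/J and 83.8 and 42.3 CPM in J/B. On library totals the groups did not overlap, and ESC B/J replicate 2 at 14.6 CPM came nearest to the lowest NPC library at 18.9 CPM. With TMM factors they overlapped, at 17.1 CPM in ESC B/J replicate 2 against 16.5 and 17 CPM in the B/J NPCs. The log2 fold change was 2.04 (SE 0.972) and did not pass, with an adjusted p of 0.0942. With a replicate block in the model it passed, as given in the closing section. It passed without ESC B/J replicate 2 (4.27, adjusted p = 0.00696) and without ESC J/B replicate 2 (3.25, adjusted p = 0.0349), and its adjusted p over all alternatives ran from 0.000231 to 0.226. Of its exons, 123 bases overlap those of *Pcsk7* on the other strand, which rose from 15.8 ± 2.09 to 32.8 ± 3.02 CPM (log2 fold change 0.58, adjusted p = 0.0188). Its exons share 1241 bases with those of the long noncoding RNA *Gm48529*, also on the other strand and not analysed here.

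*Myl9* (chr2:156617084-156623579, plus strand), the regulatory light chain of smooth muscle myosin, was at 0.178 and 2.33 CPM in the B/J and at 0.532 and 1.77 CPM in the J/B ESCs. In NPCs it was at 4.71 and 7.52 CPM in B/J and at 15.1 and 8.66 CPM in J/B. No NPC library was as low as any ESC library, and the rise was 2.36 on the log2 scale (SE 0.717, adjusted p = 0.0191). Without ESC B/J replicate 2 it was 3.73, and without NPC J/B replicate 1 it was 2.12 with an adjusted p of 0.0553.

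*Cnn1* (chr9:22010512-22020926, plus strand), calponin 1, which binds actin and lowers the activity of myosin, went the other way. Its ESC values were 1.67 and 3.57 CPM in B/J and 2.66 and 3.81 CPM in J/B, and its NPC values were 0.389 and 0.677 CPM in B/J and 3.12 and 1.01 CPM in J/B. NPC J/B replicate 1 lay among the ESC libraries, and the other 3 NPC libraries lay below all of them. Over both crosses *Cnn1* fell by 1.94 on the log2 scale (SE 0.501, adjusted p = 0.00925). The fall was not called among the libraries of number 1 alone (log2 fold change -0.81, adjusted p = 0.52), a fit added after seeing the data. Its annotated exons share 961 bases with those of *Elof1* on the other strand, which went from 38.7 ± 11 to 28.7 ± 8.37 CPM and fell by 0.91 on the log2 scale (adjusted p = 0.0294). No source used here says whether the counting used the strand, so that reads of the shared stretch cannot be told apart if it was not used.

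*Myh11* (chr16:14012399-14109236, minus strand) had 16 counts in all 4 ESC libraries together and 29 in the NPC libraries. It was at 0.0356 and 0.146 CPM in the B/J ESCs, 0.355 and 0.113 CPM in the J/B ESCs, 0.13 and 0.0376 CPM in the B/J NPCs and 0.489 and 0.312 CPM in the J/B NPCs. The stages overlapped, and the mean difference of 0.0798 CPM had a two-sided exact permutation p of 0.571 over the 4 against 4 libraries, whose smallest possible p is 0.0286. The defining heavy chain of mature smooth muscle was thus at 1 to 16 counts per library, and no change was detected.

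The cardiac actin gene *Actc1* (chr2:113876266-113884043, minus strand), which is also made in developing skeletal muscle, was at 0 and 0.474 CPM in the B/J ESCs and at 0.0444 and 0.302 CPM in the J/B ESCs. The 0 allows up to 0.107 CPM, taking 3 counts as the limit. In NPCs it was at 6.23 and 4.67 CPM in B/J and at 10.6 and 10.9 CPM in J/B. Every NPC library was above every ESC library, both crosses passed on their own, and the rise of 4.74 on the log2 scale (SE 0.836, adjusted p = 0.00153) passed in all 20 alternatives, at 7.75 without ESC B/J replicate 2.

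*Tnnt2* (chr1:135763738-135780315, plus strand), cardiac troponin T, which ties the troponin complex to tropomyosin, had no count in ESC B/J replicate 1 and ESC J/B replicate 2 and 3 counts in each of the other ESC libraries (0.109 and 0.133 CPM). In NPCs it was at 1.91 and 0.941 CPM in B/J and at 1.71 and 1.80 CPM in J/B, from 25 to 59 counts. The libraries did not overlap. The rise was 4.20 on the log2 scale (SE 0.938, adjusted p = 0.00473), and it passed in all 19 alternatives that could be fitted for it. On summed counts and library totals, the NPC level was 27.1 times the ESC level in B/J (95% exact interval 8.96 to 134, counting error only) and 28.6 times in J/B (9.51 to 141).

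*Myl7* (chr11:5845449-5848792, minus strand), the regulatory light chain of atrial muscle, fell. It was at 2.67 and 1.57 CPM in the B/J and at 2.93 and 1.02 CPM in the J/B ESCs, against 0.454 and 0.640 CPM in the B/J and 0.245 and 0.0781 CPM in the J/B NPCs. All NPC libraries lay below all ESC libraries, and the fall of 3.23 on the log2 scale (log2 fold change -3.23, SE 0.593, adjusted p = 0.00179) passed in all 20 alternatives. Of the 3 genes whose start regions hold the full CArG box shown above, *Actc1* and *Myl9* rose and *Myl7* fell. A part of the box in these changes was not tested.

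*Myl4* (chr11:104440903-104486603, plus strand), the essential light chain of atrial and embryonic muscle, was at 3.42 and 0.985 CPM in the B/J and at 4.75 and 0.528 CPM in the J/B ESCs. Its NPC values were 17.6 and 10 CPM in B/J and 7.12 and 4.88 CPM in J/B. On library totals the lowest NPC library, at 4.88 CPM, was just above the highest ESC library, at 4.75 CPM. With TMM factors the stages overlapped, with ESC J/B replicate 1 at 5.70 CPM and NPC J/B replicate 2 at 4.04 CPM. The log2 fold change of 1.42 (SE 0.690) did not pass (adjusted p = 0.0988). It passed in 8 alternatives, among them DESeq2 (1.44, adjusted p = 0.0463), and without ESC J/B replicate 1 it was 2.61 (adjusted p = 0.00674). Of its exons, 258 bases overlap those of *Cdc27* on the other strand, a gene with means of 143 ± 13.5 CPM (ESCs) and 139 ± 1.49 CPM (NPCs) that fell by 0.51 on the log2 scale (TMM factors, adjusted p = 0.00399).

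*Myh6* (chr14:55179367-55205887, minus strand), the α heavy chain of cardiac myosin, was at 0.712 and 1.13 CPM in the B/J and at 2.31 and 1.43 CPM in the J/B ESCs. It was at 0.292 and 0.640 CPM in the B/J and at 0.581 and 0.234 CPM in the J/B NPCs. All NPC libraries lay below all ESC libraries, the nearest by 0.712 against 0.640 CPM. *Myh6* fell by 2.06 on the log2 scale (SE 0.530, adjusted p = 0.00908), from 20 to 52 counts per ESC library to 6 to 19 counts per NPC library. Among the libraries of number 1 alone the fall was not called (log2 fold change -2.26, adjusted p = 0.0661).

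**Figure D2:**
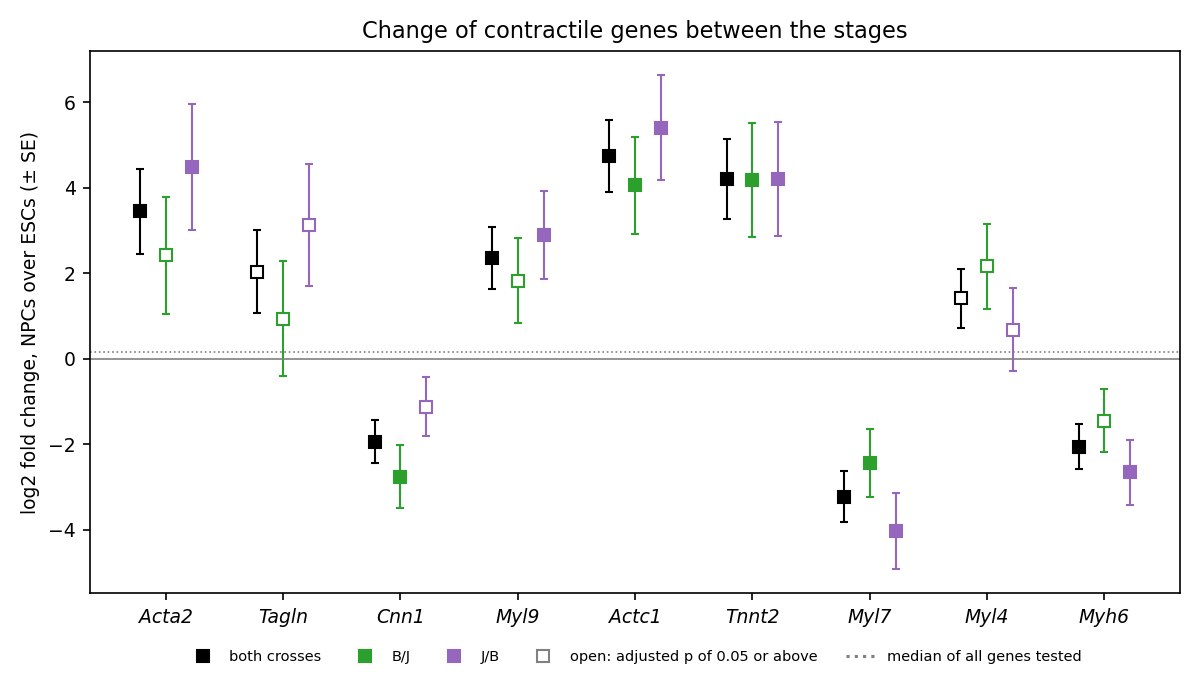
Log2 fold change of NPCs over ESCs (TMM factors, edgeR) with its SE for the 9 tested contractile genes, over both crosses in black, in B/J in green and in J/B in purple, filled where the adjusted p was below 0.05. *Actc1*, *Tnnt2* and *Myl7* are filled in all 3 comparisons, and the dotted line is the median of all genes at 0.17.

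Within each cross the same question was asked of the means of 2 against 2 libraries. The spread behind these p-values was estimated from all 8 libraries in a joint fit. In B/J, 4 of the 9 tested genes passed, *Actc1* (4.06, SE 1.14, adjusted p = 0.0184) and *Tnnt2* (adjusted p = 0.0287) higher and *Cnn1* (-2.76, SE 0.737, adjusted p = 0.0147) and *Myl7* (-2.43, SE 0.796, adjusted p = 0.0324) lower. Of all genes, 55.8% passed in B/J, 30.1% higher and 25.6% lower. In J/B, 6 passed, *Acta2* (4.48, SE 1.47, adjusted p = 0.0337), *Myl9* (2.89, SE 1.03, adjusted p = 0.0455), *Actc1* (5.41, SE 1.22, adjusted p = 0.0078) and *Tnnt2* (adjusted p = 0.0288) higher and *Myl7* (-4.03, SE 0.880, adjusted p = 0.00663) and *Myh6* (-2.66, SE 0.759, adjusted p = 0.0197) lower. Of all genes, 54.5% passed in J/B, 29.1% higher and 25.3% lower. The fall of *Myl7* in B/J lost its call in 6 of 18 alternatives, among them library totals (-1.95, adjusted p = 0.0651), the rise of *Tnnt2* in 3 of 17, the fall of *Cnn1* in 2 of 18 and the rise of *Actc1* in 1 of 18. In J/B the rise of *Myl9* lost its call in 7 of 18 alternatives. There *Acta2* lost it in 3 of 18, *Tnnt2* in 3 of 17 and *Myh6* in 3 of 17, while *Actc1* and *Myl7* kept it. The number called within a cross moved with single libraries and with the model. A replicate block within each stage, added after seeing the data, called 8 genes of the set in B/J and 8 in J/B. In B/J no gene of the set passed without NPC B/J replicate 1 and 2 passed without ESC B/J replicate 1, while over all genes 6971 and 6157 passed against 9143. Without ESC B/J replicate 2 the calls in B/J went from 2 higher and 2 lower to 5 higher and 0 lower. In J/B 3 passed when either of the NPC J/B libraries was left out, with 7064 of all genes without replicate 1 and 5700 without replicate 2 against 8935.

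A gene that passed in 1 cross and not in the other was not shown to differ between them. The interaction of stage and cross gave an adjusted p of 1 for each of the 9 genes, with differences of log2 fold changes from -1.61 (*Myl7*, SE 1.12) to 2.19 (*Tagln*, SE 1.90). It called 0% of all genes (0 of 16399, with 573 at an unadjusted p below 0.05), and DESeq2 called 11 genes, none of this set. In ESCs, J/B against B/J likewise called 0% of all genes (346 at an unadjusted p below 0.05, and 10 by DESeq2), and the log2 differences of the set ran from -0.54 (*Tagln*, SE 1.35) to 1 (*Myh6*, SE 0.716). In NPCs, 0.0061% of all genes were called, which is 1 gene, *Firre*, a noncoding RNA gene named after its value was seen. *Cnn1* (1.91 higher in J/B, SE 0.721, adjusted p = 0.763) and *Acta2* (2.20 higher, SE 1.31, adjusted p = 0.788) had the largest differences of the set upwards and *Myl7* (-1.74, SE 0.853, adjusted p = 0.77) the largest downwards. At an unadjusted p below 0.05 in edgeR's fit over all genes, *Cnn1* in NPCs was the only gene of the set in these 3 comparisons. The SEs of the set in the NPC comparison ran from 0.721 to 1.34 on the log2 scale, which limits what could be detected.

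Single libraries carried much of the summed level of the 5 smooth muscle genes. The 5 smooth muscle genes together summed to 35.1 and 36.4 CPM in the B/J NPCs and to 177 and 68.7 CPM in the J/B NPCs, and NPC J/B replicate 1 was the highest NPC library for all 5. *Acta2* and *Tagln* made up 80.2% of the summed CPM of the 10 genes in that library and 48.5% in NPC B/J replicate 1. For the 5 cardiac genes the NPC sums were 26.5 and 16.9 CPM in B/J and 20.3 and 17.8 CPM in J/B, and NPC J/B replicate 1 was the highest NPC library for none of them. Summed levels of other genes of both muscles were ordered differently. The 12 further smooth muscle genes described below summed to 1970 and 1400 CPM in the B/J and 1430 and 1240 CPM in the J/B NPCs, highest in NPC B/J replicate 1. There *Cald1*, *Tpm1*, *Csrp1* and *Tpm2* were at 709, 507, 347 and 216 CPM and made up most of the sum. Of the 12 genes only *Mylk* (36.3 CPM) and *Actg2* (3.36 CPM) were highest in NPC J/B replicate 1. The 15 further cardiac genes summed to 20 and 26.1 CPM in B/J and 48.6 and 38.4 CPM in J/B, highest in NPC J/B replicate 1, where *Myh7* was at 18.3 CPM against at most 6.32 CPM in the other NPC libraries. The replicates also parted in ESCs. There 5 genes, *Acta2*, *Tagln*, *Cnn1*, *Myl9* and *Actc1*, were higher in replicate 2 of both crosses, against 39.8% of all genes, and *Myl7* and *Myl4* were higher in replicate 1 of both, against 28.8%. *Tagln* differed 45.5-fold between the B/J ESC replicates and 10.2-fold between the J/B ESC replicates. The labels do not say what, apart from the number, sets the replicates apart, and which library was made with which of the study's kits and sequencers is not stated.

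Levels of different genes were compared per length. In CPM per kb of annotated exons (GENCODE vM39), the NPC means were 20.2 ± 14.8 for *Tagln*, 8.49 ± 9.71 for *Acta2*, 3.92 ± 1.92 for *Myl9*, 1.55 ± 0.868 for *Myl4*, 1.40 ± 0.540 for *Actc1*, 0.475 ± 0.453 for *Cnn1*, 0.178 ± 0.0495 for *Tnnt2*, 0.142 ± 0.0979 for *Myl7*, 0.0438 ± 0.0204 for *Myh6* and 0.0319 ± 0.0264 for *Myh11* (SD, n = 4). The ranges of all neighbours in this order overlapped. Within libraries, *Tagln* was above *Acta2*, *Actc1* above *Cnn1* and *Myl7* above *Myh6* in all 4 NPC libraries, while *Myl4* and *Actc1*, and *Myh6* and *Myh11*, each changed places between libraries. In ESCs *Tagln* (3.11 ± 3.39), *Cnn1* (1.07 ± 0.356) and *Myl7* (0.818 ± 0.361) came first and *Tnnt2* (0.0068 ± 0.00792) last, again with overlapping ranges for all neighbours. With the longest transcript in place of all exons, *Myl4* was at 3.02, *Actc1* at 2.19, *Tnnt2* at 0.478 and *Myh6* at 0.0648 CPM per kb in NPCs, and the other 6 moved by less than their SD.

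**Figure D3:**
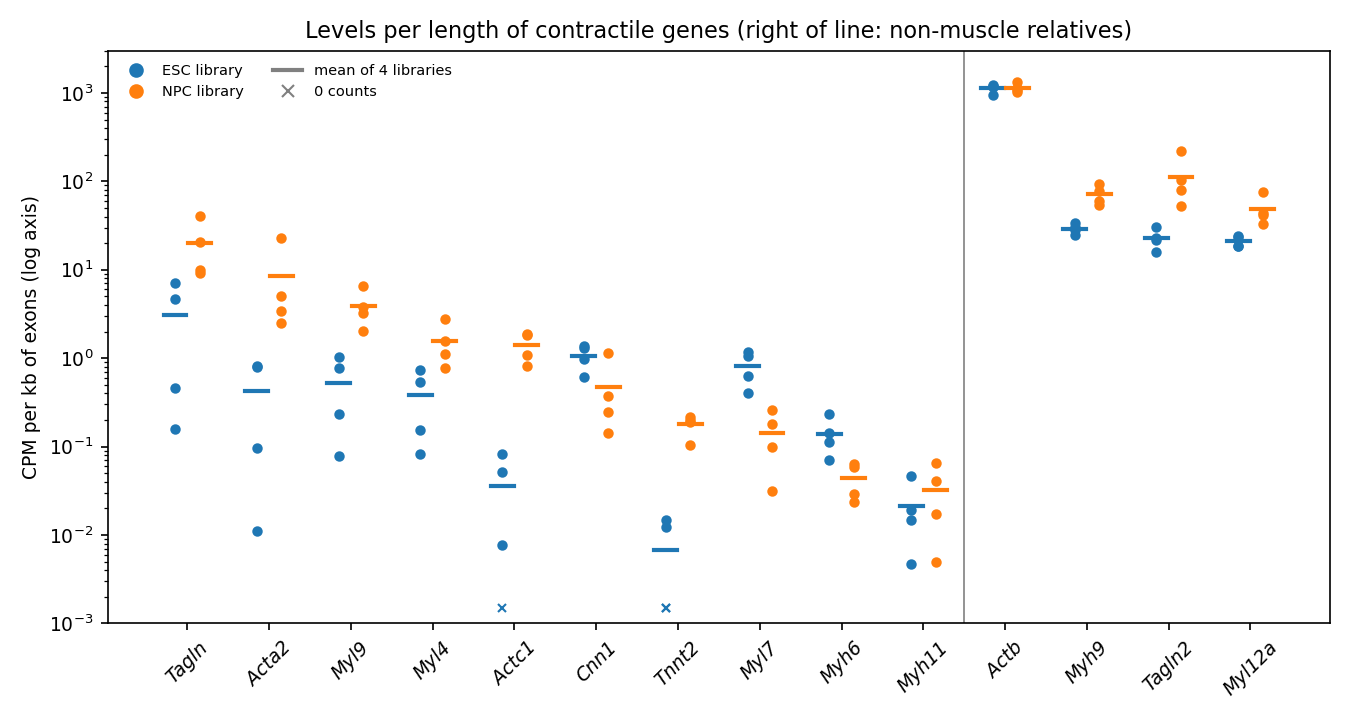
Level per length of the 10 contractile genes, ordered by their NPC mean, and of 4 non-muscle relatives to the right of the line, in CPM per kb of annotated exons on a log axis. Points are libraries, bars are means of 4 libraries and crosses mark 0 counts, and the non-muscle actin gene *Actb* lies near 1140 CPM per kb in both stages, above every contractile gene.

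The smooth muscle genes have close relatives that are also made outside muscle, such as *Actb* among the actins, and shares within such families were set side by side. Of the mRNA of 6 actin genes per length, *Acta2* made up 0.000548 to 0.0413% in ESCs and 0.118 to 0.946% in NPCs, and *Actc1* 0 to 0.0041% and 0.038 to 0.0905%. The rest was almost wholly *Actb* and *Actg1*. *Tagln* made up 0.671% and 24.2% of the 3 transgelins in the B/J ESCs and 1.48% and 22.2% in the J/B ESCs, against 4.02, 8.17, 32.8 and 24.1% in the NPCs in the same order, so that the stages overlapped. Its relative *Tagln2* rose (log2 fold change 1.70, adjusted p = 0.00208), and so did *Cnn2*, from 8.32 ± 4% to 38.5 ± 11.1% of the 3 calponins (2.26, adjusted p = 0.000551), while *Cnn1* was at most 1.03% of the calponins in any library. *Myl9* was 1.59 ± 1.28% of its family with *Myl12a* and *Myl12b* in ESCs and 7.06 ± 3.85% in NPCs, and the stages overlapped, with 2.99% in ESC B/J replicate 2 and 2.43% in NPC B/J replicate 1. *Myh11* was at most 0.133% of its family with the non-muscle heavy chains *Myh9* and *Myh10*, which both rose. With TMM factors, 7 of 13 non-muscle relatives rose and 4 fell, with the largest rise in *Tagln3* (3.65, adjusted p = 0.000966) and the largest fall in *Tpm3* (-0.96, adjusted p = 0.00068), beside 37.5% of all genes called higher and 31.9% lower.

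The pair of cardiac myosin heavy chains changed places. *Myh6* made up 87.0 and 93.9% of *Myh6* and *Myh7* together in the B/J ESCs and 91.2 and 95.0% in the J/B ESCs, but 7.39 and 9.20% in the B/J NPCs and 3.09 and 3.58% in the J/B NPCs. *Myh7*, the β chain of ventricle and slow skeletal muscle, rose from 0.119 ± 0.0701 to 8.64 ± 6.53 CPM (log2 fold change 5.57, SE 0.598, adjusted p = 0.000128), while *Myh6* fell. The coding sequences of the pair are 91.7% identical, with an identical run of 245 bases, so that reads of such stretches are uncertain. The other pairs are less alike, with 82.6% for *Acta2* and *Actc1*, 86.3% for *Actc1* and *Acta1* and 86.4% for *Myl9* and *Myl12b*.

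**Figure D4:**
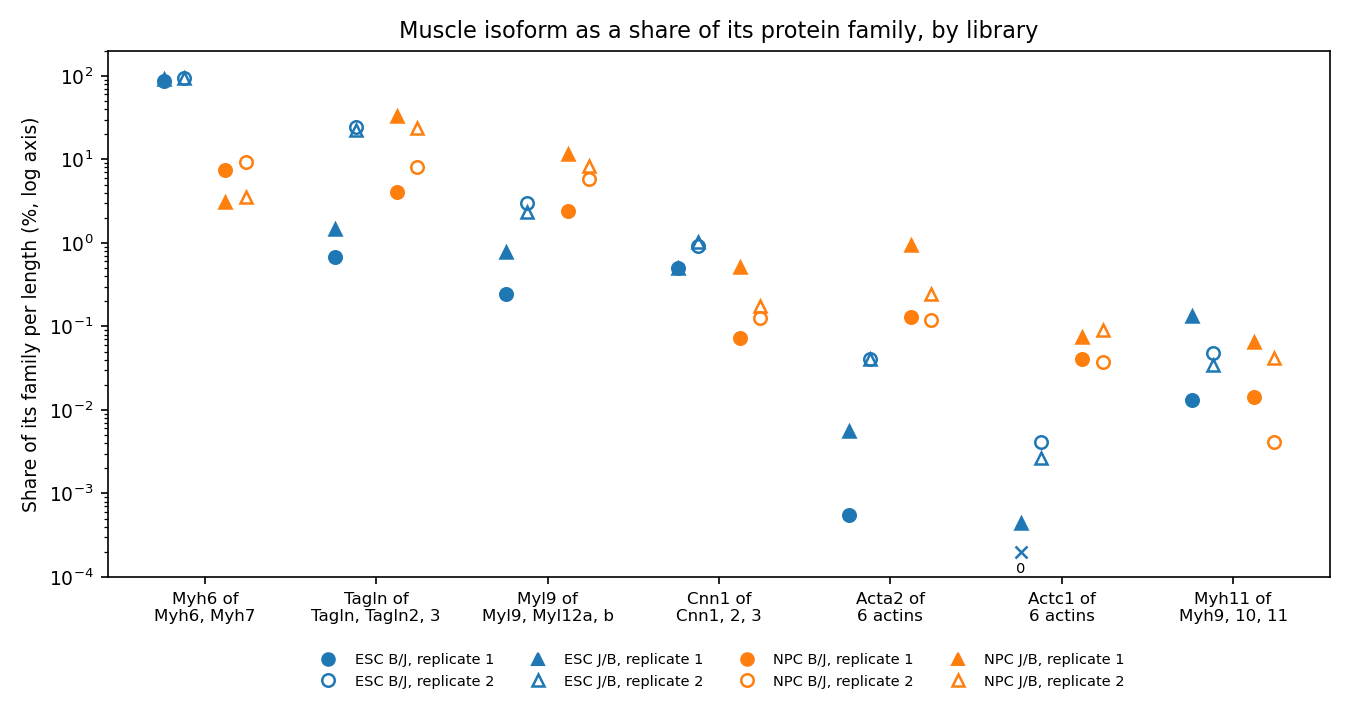
Share of 7 contractile genes in the mRNA of their protein family per length, in percent on a log axis, by library, with ESCs in blue and NPCs in orange, circles for B/J, triangles for J/B, filled for replicate 1 and open for replicate 2. *Myh6* drops from 87.0 to 95.0% of the cardiac pair in ESCs to 3.09 to 9.20% in NPCs, and *Acta2* stays below 1% of the actins in every library (a cross marks 0).

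The counts of the lists that follow stand beside the 37.5% of all genes called higher and the 31.9% called lower. Of 12 further genes of smooth muscle, 11 rose, none fell and *Des*, desmin, did not pass (log2 fold change -0.51, adjusted p = 0.443), with a median of 2.63 over the list. *Mylk*, the kinase that switches smooth muscle myosin on, rose from 0.283 ± 0.230 to 19.9 ± 11.6 CPM (5.69, adjusted p = 7.96e-05). *Cald1*, *Tpm1* and *Csrp1*, which are also made in non-muscle cells, rose to 529 ± 125, 425 ± 58.6 and 241 ± 78.1 CPM. *Actg2*, the enteric smooth muscle actin, reached 3.36 CPM in NPC J/B replicate 1 and 0.0752 to 0.487 CPM in the other NPC libraries (3.87, adjusted p = 0.0215). *Lmod1*, a smooth muscle actin nucleator, rose (2.66, adjusted p = 0.00267).

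Of 15 further cardiac genes, 12 could be tested, and 8 rose, 2 fell and 2 did not pass. *Myl3*, *Tnnc1*, *Casq2* and *Actn2* were among those that rose, and *Tnni3*, cardiac troponin I, did not pass (0.33, adjusted p = 0.513). *Nppa*, the atrial natriuretic peptide gene, had no count in ESCs and 48 in NPCs, which is at least 14.5-fold higher (3 counts over the 4 ESC libraries, library totals). *Ryr2*, the calcium release channel, fell from 5.74 ± 1.51 to 3.51 ± 1.44 CPM and *Ttn*, titin, from 5.99 ± 8.52 to 1.11 ± 0.314 CPM, the latter with 18.7 CPM in ESC J/B replicate 1 alone. The ventricular light chain *Myl2* had no count in any NPC library and the calcium pump regulator *Pln* 14 in all 4 together. The tested cardiac genes thus included members that moved either way, as among the 5 described above.

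The skeletal muscle list of 15 genes, with 13 tested, had 11 that rose, 1 that fell and 1 that did not pass. *Acta1*, the skeletal actin, rose from 0.328 ± 0.341 to 8.88 ± 6.40 CPM (4.06, adjusted p = 0.00162), *Myh3*, the embryonic heavy chain, to 8.98 ± 4.02 CPM and *Pax7*, a gene of muscle precursors that is also made in the dorsal neural tube, to 11.6 ± 6.74 CPM. *Myod1*, which commits cells to skeletal muscle, rose to 0.658 ± 0.236 CPM (4.34, adjusted p = 0.00351) and *Myog* to 1.42 ± 0.595 CPM (2.81, adjusted p = 0.0089). *Myl1* had no count in ESCs and was at least 56.9-fold higher in NPCs. *Mylpf*, the fast skeletal regulatory light chain, stood apart at 111 to 320 CPM in ESCs and fell to 2.69 to 5.38 CPM (log2 fold change -6.04, adjusted p = 4.82e-05).

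Among 15 regulators of muscle genes, 13 were tested, 11 rose and none fell. *Srf* was at 65.1 ± 20.3 and 91.3 ± 12.2 CPM (log2 fold change 0.02, SE 0.222, adjusted p = 0.937). Its partner *Myocd*, myocardin, rose from 0.028 ± 0.036 to 1.15 ± 0.301 CPM (4.75, adjusted p = 0.00155). *Myocd* was at 1.23 and 0.715 CPM in the B/J NPCs and at 1.41 and 1.25 CPM in the J/B NPCs. *Srf* was at 99.3 and 79.4 CPM in the B/J NPCs and at 104 and 82.3 CPM in the J/B NPCs. Both were highest in NPC J/B replicate 1, and their part in the contractile gene levels was not tested. *Mef2a*, *Mef2c*, *Mef2d*, *Gata6*, *Isl1*, *Hand1* and *Hand2* rose. *Gata4* rose over both crosses (1.02, adjusted p = 0.0186) although its libraries overlapped between the stages, and it was at 2.27 in J/B (adjusted p = 0.00441) and at -0.22 in B/J (adjusted p = 0.685). The cardiac regulators *Nkx2-5* and *Tbx5* were at most 0.214 and 0.468 CPM in any library and were not tested, and *Tbx20* did not pass (-0.99, adjusted p = 0.166). *Tbx5* had 0 counts in ESCs and 24 in NPCs.

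**Figure D5:**
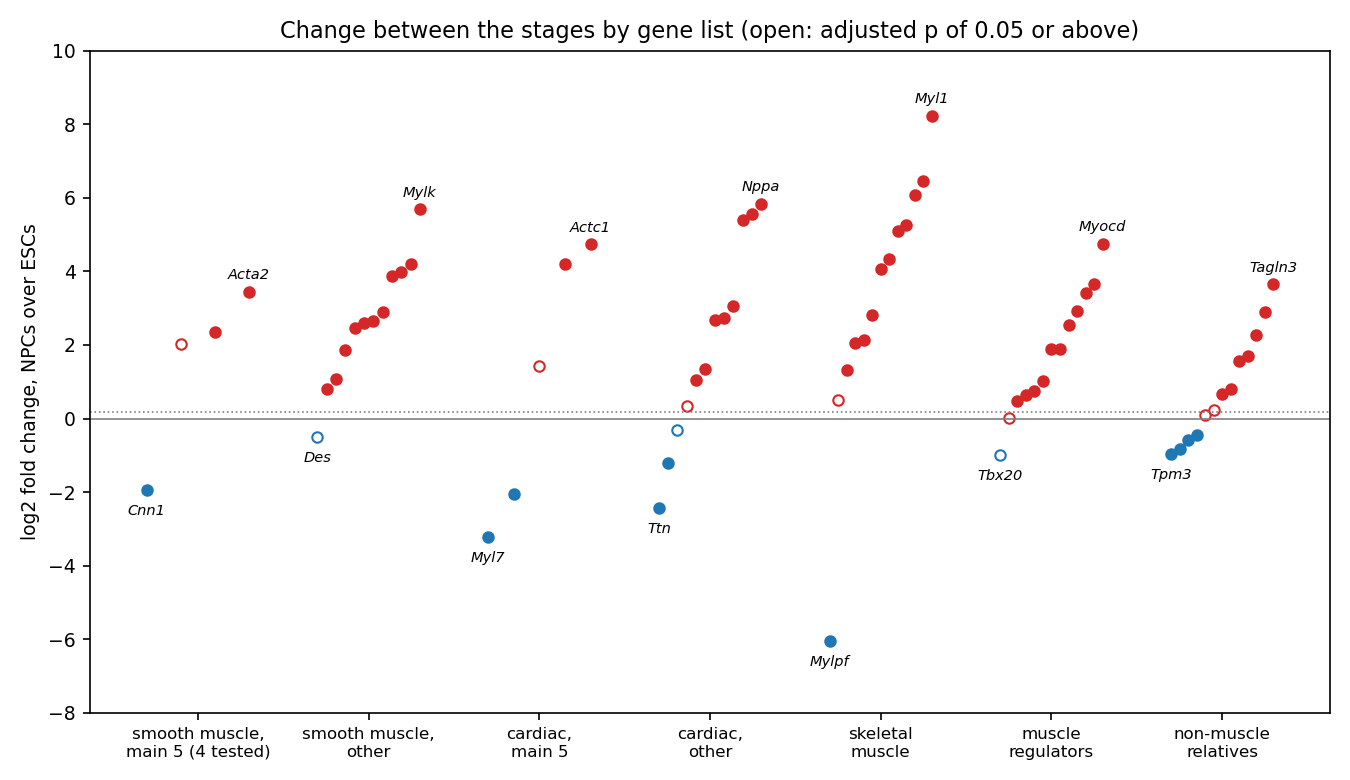
Log2 fold change of NPCs over ESCs (TMM factors, edgeR) for each tested gene of 7 lists, sorted within a list, red above 0 and blue below, open where the adjusted p was 0.05 or above, with the genes at both ends named. The smooth muscle list other than the main 5 lies above 0 except for *Des*, the cardiac lists spread to both sides, and fitted values of genes with no count in ESCs (*Nppa*, *Myl1*) are no bound.

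Markers of other cell types also changed between the stages, in directions that differed between the lists and within some of them. Of 10 fibroblast genes 9 rose, with summed levels of 37.5 to 97.0 CPM in ESCs and 1130 to 2590 CPM in NPCs, of 8 pericyte genes 6 rose and 1 fell (78.1 to 135 CPM and 244 to 322 CPM), of 8 endothelial genes 3 rose and 2 fell (34.7 to 97.4 CPM and 289 to 936 CPM), and of 10 trophoblast genes all 10 rose (11.1 to 68.5 CPM and 1620 to 4060 CPM). Of 10 neural precursor genes 8 rose and 1 fell, with sums of 612 to 955 CPM in ESCs and 693 to 1940 CPM in NPCs, and all 6 pluripotency genes fell, *Dppa5a* and *Klf4* to 36.7 ± 36.9 and 48.4 ± 10.9 CPM. The extracellular matrix genes *Col3a1*, *Col1a1* and *Fbln1* rose to 929 ± 305, 377 ± 150 and 302 ± 61.6 CPM, and *Lum*, the proteoglycan lumican, rose most among the fibroblast genes (log2 fold change 10.75, adjusted p = 3.29e-05). Of the pericyte genes, *Notch3*, *Pdgfrb* and *Rgs5* rose to 153 ± 40.4, 55.3 ± 16 and 46.5 ± 6.18 CPM and *Mcam*, an adhesion molecule, fell (-2.01, adjusted p = 0.000492). The VEGF receptor gene *Kdr* rose to 18.8 ± 6.68 CPM, and *Pecam1* fell (-2.35, adjusted p = 0.000556). The keratin genes *Krt8* and *Krt18* of simple epithelia rose to 954 ± 424 and 622 ± 255 CPM, and the placental cathepsin gene *Ctsj* went from no count in ESCs to 363 ± 145 CPM. Among the neural precursor genes, *Vim* and *Msi1* rose to 717 ± 197 and 160 ± 71.3 CPM, *Fabp7* rose most (8.52, adjusted p = 0.000111), and *Sox2*, which is also a gene of stem cells, fell from 521 ± 161 to 159 ± 80.8 CPM (-2.27, adjusted p = 0.00161). Shares called over all genes were 37.5% higher and 31.9% lower. The higher endothelial sum in NPCs was that of *Cdh5*, at 254 to 880 CPM, and without it the other 7 genes summed to 34.5 to 97.2 CPM in ESCs and 23.2 to 55.9 CPM in NPCs. None of these lists held a gene at 0 in all 8 libraries. Within NPCs, the library with the highest sum of the 5 smooth muscle genes, NPC J/B replicate 1 at 177 CPM, had the lowest fibroblast sum of the 4, 1130 CPM. It was the lowest NPC library for 7 of the 10 fibroblast genes, while *Dcn* (6.42 CPM) and *Thy1* (6.39 CPM) were higher there than in both B/J NPC libraries. Its pericyte sum of 313 CPM was like those of 314 and 322 CPM in NPC J/B replicate 2 and NPC B/J replicate 2, its neural precursor sum of 1940 CPM was the highest, its trophoblast sum of 2300 CPM lay within the range of the others, and its pluripotency sum of 87.1 CPM was the lowest. In ESCs, the libraries with the high *Acta2* and *Tagln* values, both of replicate 2, had fibroblast sums of 48.6 and 47.7 CPM, and the highest fibroblast sum, 97.0 CPM, was in ESC J/B replicate 1. The same libraries of replicate 2 had lower pluripotency sums (4090 and 3630 CPM against 5710 and 5930 CPM), higher trophoblast sums (68.5 and 39.5 CPM against 11.1 and 18 CPM) and higher neural precursor sums (955 and 884 CPM against 656 and 612 CPM), each given for B/J first. The part of these cell types in the contractile gene levels was not tested.

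To see which genes ran like the set, log2 CPM (TMM, prior count 2) was centred for each gene over the 8 libraries and compared with the mean profile of the 4 tested smooth muscle genes or of the 5 cardiac genes, over 14074 other genes with a mean of at least 1 CPM. The nearest to the smooth muscle profile were *Bmper* at a root mean square distance of 0.495, *Hoxd8* (0.526), *Fndc3c1* (0.537), *Isl2* (0.540) and *Cdh10* (0.544), against a median distance of 1.70. *Myl9* lay 0.461 from that profile, *Tagln* 0.769, *Acta2* 1.18 and *Cnn1* 2.13, so that *Cnn1* was farther from the mean of its own group than the median gene. The nearest to the cardiac profile were *Dusp16* (0.179), *Rras* (0.194), *Mtmr10* (0.213), *Pbx2* (0.218) and *Lmna* (0.224), against a median of 0.948. *Myl4* lay 0.934 from it, *Tnnt2* 1.27, *Myh6* 1.57, *Myl7* 2.05 and *Actc1* 2.18, so that the cardiac mean profile was followed closely by none of its 5 genes.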

How the data were processed

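For each library the authors deposited a table of raw counts per gene, not normalized and over both alleles, with 26263 genes. Paired-end reads had been aligned with TopHat2 to the mm39 genome masked at SNPs and filtered to proper pairs of mapping quality 20 or more, which drops reads that fit several places. The submitters' processing notes also name HTSeq, DESeq2 and edgeR, with no role or version. The 5 closing entries that name no gene were left out (5.76 to 10.9% of reads without a feature, 0.355 to 0.554% ambiguous).

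Counts were tested in R 4.3.3 with edgeR 4.0.16 (TMM, filterByExpr with a minimum count of 10, group means, robust quasi-likelihood, common dispersion 0.113) and Benjamini-Hochberg adjustment over 16399 genes. TMM factors were 0.820 to 0.885 in ESCs and 1.14 to 1.21 in NPCs. SEs of edgeR's log2 fold changes were worked back from the test, as the absolute change over the square root of its F statistic. *Myh11* failed the filter and was compared with an exact permutation test, added after seeing the data. Alternatives were DESeq2 1.42.0, limma-voom (limma 3.58.1), scaling by RLE, by library totals or by *Gapdh*, *Gusb* and *Tbp*, other filters, no robust estimation, a replicate block and leaving out each library. A group left with 1 library took its spread from the other groups. Fits within number 1 or 2 and a block within each stage were added after seeing the data. The tests were tested on simulated data.

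The members, the lists and the rule for named genes were chosen with earlier results of these data known. The rule names all 10 members, the 3 highest NPC genes and the largest rise and fall of each list, and the 5 genes nearest each profile; other genes were named after their values were seen. Intervals (95%) and the limit of 3 counts cover counting error only. Gene positions and lengths are from GENCODE vM39 (GRCm39), start regions from RefSeq (GRCm38.p6). Allelic data were not used here.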

Additional observations from a re-analysis of the deposited data

Results flagged for a closer look

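*Acta2* in NPC J/B replicate 1 was at 74.1 CPM, and the next NPC library was at 16.4 CPM. The gap was 0.874 of the whole range of the 4 NPC libraries, above Dixon's 95% critical value for 4 samples. These tests were made on CPM without logs, and the flag depends on that scale. It was the only 1 of 20 such tests (10 genes in 2 stages) past its limit, and about 1 in 20 passes by chance. In the same library *Tagln*, *Cnn1* and *Myl9* were also at their highest NPC levels and 7 of 10 fibroblast genes at their lowest.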

How the results depend on the processing

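Of 498 log2 fold changes of single genes of the set under alternatives, 430 kept direction and side of the threshold, 33 lost and 33 gained the call, and 2 turned, both not called in the first place. *Tagln* in B/J ran from -0.02 without ESC B/J replicate 1 to 5.41 without ESC B/J replicate 2, and *Myl4* in J/B from -0.17 without ESC J/B replicate 2 to 3.06 without ESC J/B replicate 1. The cause was not tested. Over both crosses the number of the set called was 5 to 9 against 7, and 5 to 8 with 1 library left out. In B/J it was 0 to 5 with 1 library left out and 8 with a replicate block within each stage, against 4, and in J/B 3 to 7 with 1 library left out, against 6. No alternative called a gene of the set between the crosses or in the interaction.

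Deviations of same-numbered libraries correlated at 0.518 between the crosses in ESCs and 0.587 in NPCs but at 0.0489 to 0.0915 between the stages, so that the numbers were not taken as pairs. With the replicate block, 9 of the set were called over both crosses, 5 in B/J and 6 in J/B, and 12010 genes in all against 11378. The block called *Tagln* (2.87, adjusted p = 0.0486) and *Myl4* (1.79, adjusted p = 0.0126) as well, and so did a block within each stage (3.20, adjusted p = 0.000231, and 1.85, adjusted p = 0.0012). For all genes, counts between the crosses in NPCs ran from 0 to 70 (DESeq2) against 1, and within J/B 5700 were called without NPC J/B replicate 2 against 8935. Depth limits *Myh11*, at 1 to 16 counts per library, and the ESC levels of *Tnnt2* and *Actc1*, at 0 to 13 counts per library.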
